A study of Homo sapiens with 6 samples.

Results

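Mitochondrial ribosomal protein genes were followed in the human prostate cancer line LNCaP after sorting by aldehyde dehydrogenase (ALDH) activity. The members were the rows of the gene table whose symbol is MRPL or MRPS with a number and at most a letter A to C: 78 of 16000 genes, 49 named for the large subunit (MRPL) and 29 for the small subunit (MRPS). Every gene of this name pattern in the GENCODE 29 annotation was in the table, and all 78 were tested. The cells were labelled with the fluorescent ALDEFLUOR reagent and sorted into the top 10% of the signal (ALDH high) and the bottom 10% (ALDH low), with 3 samples each. Both groups were cultured in RPMI-1640 with 10% FBS and carry no other genotype or treatment per the labels. Libraries were made from poly(A)-selected mRNA. All samples come from this 1 line, and nothing in the labels says that the numbered samples came from separate cultures or sorts, so the tests measure the spread between these samples, which may be technical. In bulk RNA, fewer cells with a transcript and less transcript per cell cannot be told apart.

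The mitochondrial ribosome translates the mRNAs that mitochondrial DNA codes for, all of which are subunits of the respiratory chain and ATP synthase. Its ribosomal RNAs come from mitochondrial DNA, while every one of its proteins is coded in the nucleus, made in the cytosol and imported. Some of these proteins have bacterial counterparts and others exist in mitochondria alone. The small subunit reads the mRNA and the large subunit joins the amino acids. Some names no longer match the position of the protein: MRPS18A and MRPS30 sit in the large subunit, and MRPS36 is now counted as a part of the 2-oxoglutarate dehydrogenase complex. They are kept with the MRPS genes here, as their names have it.

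The 6 libraries held 23817310 to 30617873 reads over the listed rows, and each member had at least 183 reads in every library. Across genes, ALDH high 1, ALDH high 3 and ALDH low 2 correlated with each other at Pearson r of 0.994 to 0.996 on the log2 scale, ALDH high 2 and ALDH low 1 at 0.983, and ALDH low 3 with each of the others at 0.967 to 0.970. The libraries did not separate by ALDH group. All 8 luminal prostate markers were in the table, together at 186334 to 222442 normalized reads per library, against 1 of 3 basal markers (KRT14, 70.2 to 286 normalized reads), 1 of 5 leukocyte markers (CD68, 16.4 to 32.0), 1 of 4 endothelial markers (VWF, 189 to 417) and 2 of 5 fibroblast markers (COL1A1 and PDGFRB, together 881 to 1846). The table lists genes from a mean of 9.65 normalized reads up.

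Sequence near the start of these genes is shown first, because it is a feature that the choice of members did not use. RefSeq (GRCh38.p14) start windows, reaching from 250 bases before to 50 bases after the start of a gene, were found for 69 members, 42 MRPL and 27 MRPS, among 27305 windows in all. The letters CCGGAAG, the core bound by ETS family factors such as GABP, were present on either strand in 29 member windows (42.03%), against 10.7% of all windows. AAGATGG, the core of the YY1 motif, was present in 23 (33.3%), against 6.06%. GCGCATG, part of the NRF1 motif, was in 7 (10.1%), against 4.67%. The GC box letters GGGCGG were in 42 (60.9%), against 44.6%, and TATAAA was in 2 (2.90%), against 11.95%. None of these motifs contains another. A match here is a description of the letters and not of binding. The windows in all were not limited to protein-coding genes or to genes in the table, whereas every member is both. The shares therefore do not set the members beside other expressed coding genes alone.

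Among the members read base by base, 16 had the YY1 letters just past the gene start, all in the direction of transcription, and in 12 of these 16 the ATG inside them was an annotated start codon. The lines below show 8 of them in GRCh38.p14, 5′ to 3′ along the gene, with the YY1 letters in capitals.
MRPL38 (chr17:75904860-75904889, minus strand): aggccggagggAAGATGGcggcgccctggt
MRPL46 (chr15:88467362-88467391, minus strand): tgggagaacgaAAGATGGcggcgcccgtaa
MRPL50 (chr9:101398577-101398606, minus strand): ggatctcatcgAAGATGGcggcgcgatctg
MRPS7 (chr17:75261887-75261916, plus strand): cgtggccagccAAGATGGctgcccccgcag
MRPS10 (chr6:42217834-42217863, minus strand): tcgggaccggcAAGATGGcggcgcggacag
MRPS18A (chr6:43687764-43687793, minus strand): gtaggtttttgAAGATGGcggccctcaagg
MRPS18B (chr6:30617852-30617881, plus strand): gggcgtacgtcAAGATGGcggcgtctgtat
MRPS27 (chr5:72320206-72320235, minus strand): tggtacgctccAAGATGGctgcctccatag
The same core stands at the start of genes of both subunits.

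ETS or NRF1 letters also lay upstream of the start, in members with and without the YY1 letters. The next lines give a stretch before the start of 3 members whose values are described further on, with the letters in capitals. MRPL47 carries the ETS core, MRPS18C the NRF1 letters and MRPL20, which is also among the 16 above, the ETS core.
MRPL47 (chr3:179604655-179604689, minus strand): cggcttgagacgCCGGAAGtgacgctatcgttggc
MRPS18C (chr4:83455884-83455931, plus strand): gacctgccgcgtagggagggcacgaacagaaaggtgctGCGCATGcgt
MRPL20 (chr1:1407314-1407543, minus strand): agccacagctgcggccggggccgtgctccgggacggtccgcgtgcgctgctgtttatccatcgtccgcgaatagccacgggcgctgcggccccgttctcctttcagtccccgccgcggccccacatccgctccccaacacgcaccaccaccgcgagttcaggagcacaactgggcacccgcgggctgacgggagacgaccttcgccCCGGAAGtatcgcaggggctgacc
Members with and without these letters are compared after the values.

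All 78 members were expressed in every library, and their levels spread widely. Levels between genes are compared as normalized reads per kilobase of the principal GENCODE transcript, as the mean of the 6 libraries. Over the MRPL genes this level ran from 193 to 6770 (median 1977), and over the MRPS genes from 333 to 4124 (median 1327). The highest MRPL gene was MRPL20, the counterpart of a bacterial protein of the large subunit, at 6770 normalized reads per kilobase, and MRPL41, which has no bacterial counterpart, was next at 6313. MRPL24 followed at 5910 and MRPL4, whose bacterial counterpart lines the exit tunnel, at 4739. Among the MRPS genes the highest were MRPS15 at 4124 and MRPS34 at 4058, followed by MRPS33 at 3520 and MRPS7 at 2809. The lowest were MRPL53 at 193, MRPL50 at 326 and MRPL35 at 329 in the large subunit, and MRPS10 at 333, MRPS17 at 355 and MRPS36 at 446 in the small subunit.

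The order of neighbours in level is not firm. MRPL20 had 4009 to 6711 normalized reads over the 6 libraries and MRPL41 had 6440 to 11076, and per kilobase these ranges overlap. The transcript length chosen also moves the order: per kilobase of all annotated exons MRPL20 was 10th in place of 1st, MRPL42 46th in place of 8th and MRPS33 18th in place of 3rd, while MRPL41 was 1st in place of 2nd and MRPS34 was 1st in place of 2nd. MRPL53 shares 52.3% of its transcript with CCDC142 on the same strand, and MRPL12 shares 68.2% with AC139530.2, so the reads assigned to them are uncertain.

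**Figure D1:**
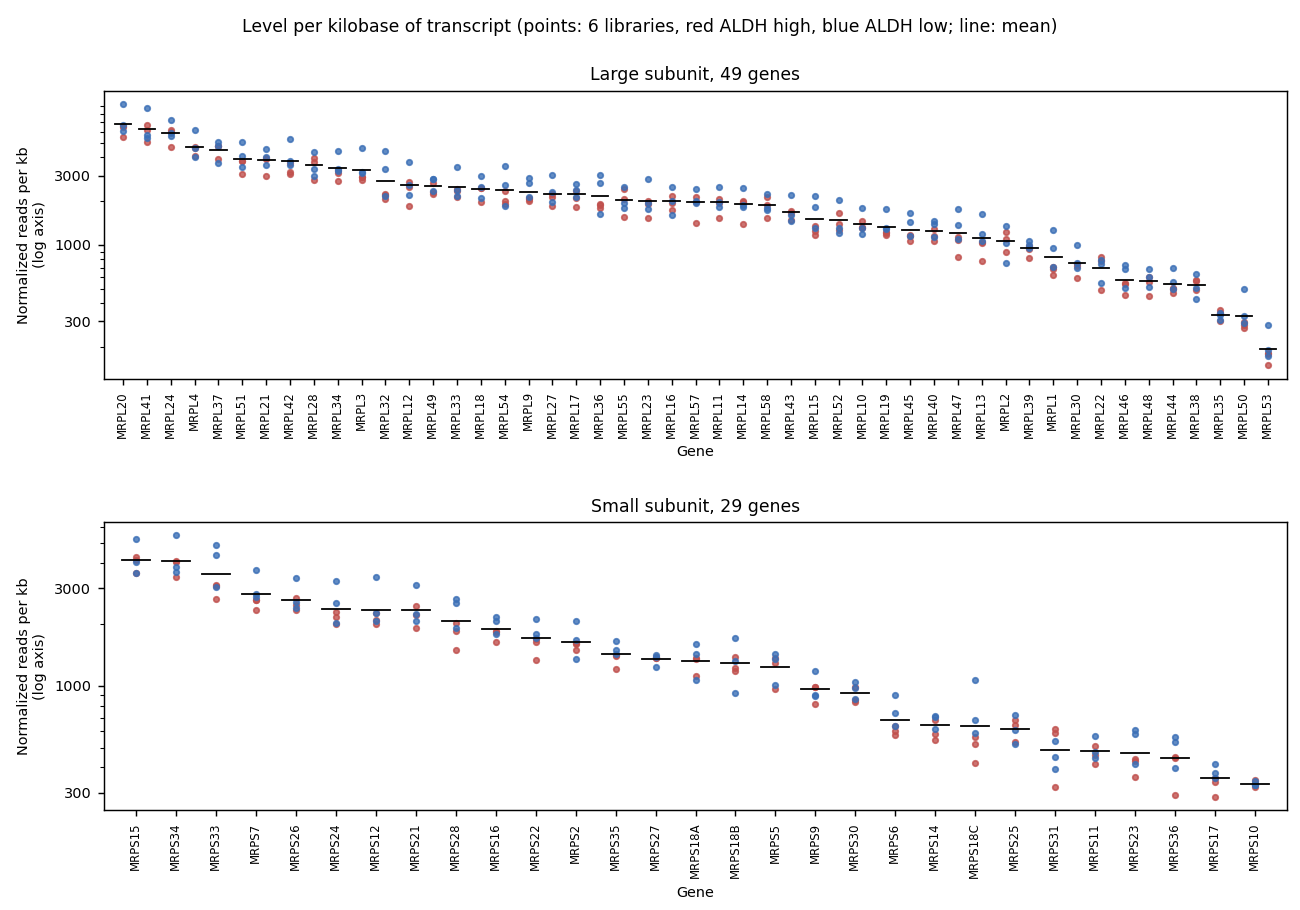
Normalized reads per kilobase of the principal transcript (log axis) for the 49 MRPL genes and the 29 MRPS genes, ordered by the mean; each point is a library, red for ALDH high and blue for ALDH low, and the line is the mean of 6. Means run from 193 (MRPL53) to 6770 (MRPL20), and the 2 colours are mixed in most genes.

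Between the ALDH groups, no member passed the test. With limma on log2(normalized reads + 1), 0 of 78 members and 0 of 16000 genes (0.0%) had a Benjamini-Hochberg adjusted p under 0.05, and the adjusted p of the members lay between 0.984 and 0.9996. At an unadjusted p under 0.05 there were 338 genes and 7 members, and edgeR and DESeq2 on the recovered reads also called 0 genes. All 7 members were lower in ALDH high: MRPL1, MRPL15, MRPL32, MRPL47, MRPS18C, MRPS28 and MRPS33. Over all genes 0.737% were lower and 1.38% higher at that limit, and of the members 8.97% were lower and none higher. With 1 library left out that count was 1 to 3 members, except 16 without ALDH low 2. It was 1 without ALDH high 2, ALDH high 3 or ALDH low 1, 2 without ALDH low 3, 3 without ALDH high 1, and 0 with spike-in scaling or without the variance trend. In the authors' deposited table the adjusted p of the members lay between 0.998 and 0.999.

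Most members nevertheless had a lower mean in ALDH high. The log2 difference, ALDH high minus ALDH low, was below 0 in 45 of 49 MRPL genes, with a median of -0.21, and in 25 of 29 MRPS genes, with a median of -0.15. Over all 16000 genes 7638 were below 0 and the median was 0.02. The 95% intervals of 71 of the 78 differences include 0, and 76 lie within a 2-fold change in either direction. For most members a change of over 2-fold thus lies outside the interval, while some smaller changes lie inside it and others outside. The half-width of the interval was 0.32 to 0.52 on the log2 scale for MRPL genes and 0.30 to 0.56 for MRPS genes.

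**Figure D2:**
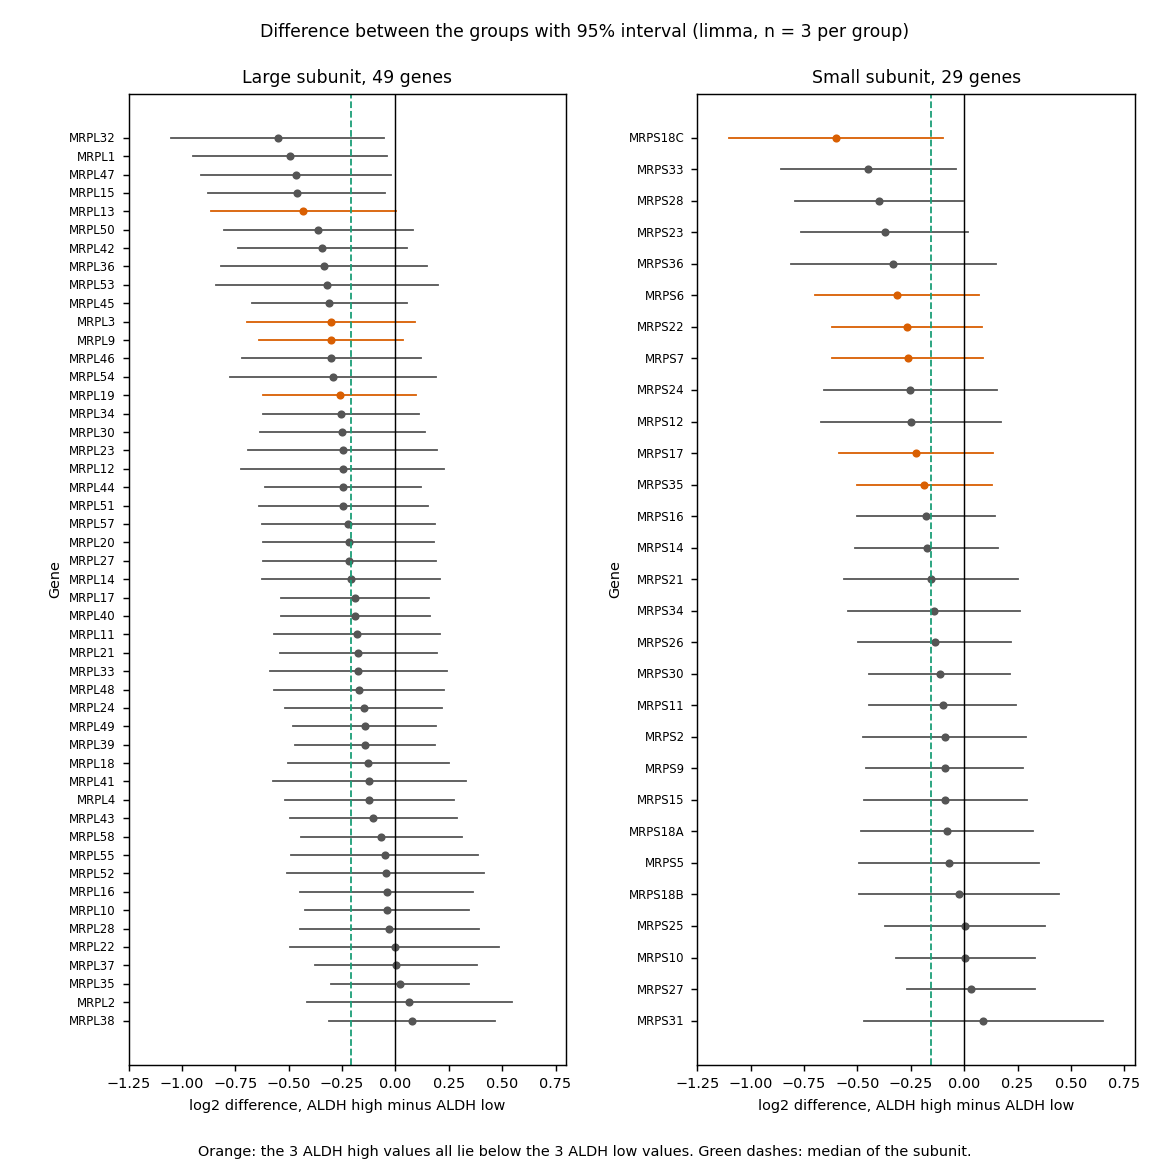
Log2 difference of each gene (point, ALDH high minus ALDH low) with its 95% interval from limma, 3 samples per group; orange marks genes whose groups do not overlap, and the green dashes are the medians of -0.21 (MRPL) and -0.15 (MRPS). Points lie left of 0 in 70 of 78 genes, and 71 intervals cross 0.

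In each group 1 library stood apart from the others in the median of these genes. The median deviation of the 49 MRPL genes from their own mean over the 6 libraries was -0.02 in ALDH high 1, -0.27 in ALDH high 2, -0.01 in ALDH high 3, 0.04 in ALDH low 1, -0.06 in ALDH low 2 and 0.32 in ALDH low 3, on the log2 scale. For the 29 MRPS genes it was -0.03, -0.22 and 0.003 in ALDH high 1 to 3, and -0.03, -0.02 and 0.29 in ALDH low 1 to 3. In both subunits the groups overlap: ALDH high 2 lies lowest, ALDH low 3 highest, and the medians of the other 4 libraries lie within 0.10 of each other. These medians hide a split in ALDH low 1. Its median deviation was 0.37 in the 26 members lowest in GC content of the transcript and -0.14 in the 26 highest. ALDH low 3 was the highest library for 56 of 78 members, against 4404 of 16000 genes, and ALDH high 2 the lowest for 50, against 2902. Within ALDH low, 69 of 78 members were higher in ALDH low 3 than in ALDH low 2, by a median of 0.37, and within ALDH high 68 were higher in ALDH high 3 than in ALDH high 2, by a median of 0.27. The other within-group pairs had medians of 0.35 (ALDH low 3 over ALDH low 1), 0.22 (ALDH high 1 over ALDH high 2), 0.09 (ALDH low 1 over ALDH low 2) and 0.005 (ALDH high 3 over ALDH high 1). The 4 pairs that include ALDH low 3 or ALDH high 2 lie above the 2 that do not. These libraries were picked as the extremes from the same values, so this order largely follows from the choice and is no separate support.

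Leaving out ALDH high 2 or ALDH low 3, the lowest and the highest library for these genes, must shrink the gap, so the values that follow give only its size without them. Without ALDH low 3 the medians were -0.07 (MRPL) and -0.03 (MRPS) with 52 of 78 members below 0, and without ALDH high 2 they were -0.12 and -0.09 with 60 below 0. Without both, a choice made after the values were seen, 37 of 78 members were below 0 and the medians were 0.04 and -0.01. With another library left out the count below 0 was 73 (ALDH high 1), 76 (ALDH high 3), 77 (ALDH low 1) or 68 (ALDH low 2). Scaling to the spike-in reads moved the median of all genes to 0.15, and the members' medians to -0.07 and -0.02 with 51 below 0. This scaling shifts all genes alike, and relative to the median of all genes the MRPL median was -0.22 and the MRPS median -0.17 both with and without it. Removing a trend on the length of all annotated exons and on GC content left medians of -0.14 and -0.06 with 62 below 0.

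**Figure D3:**
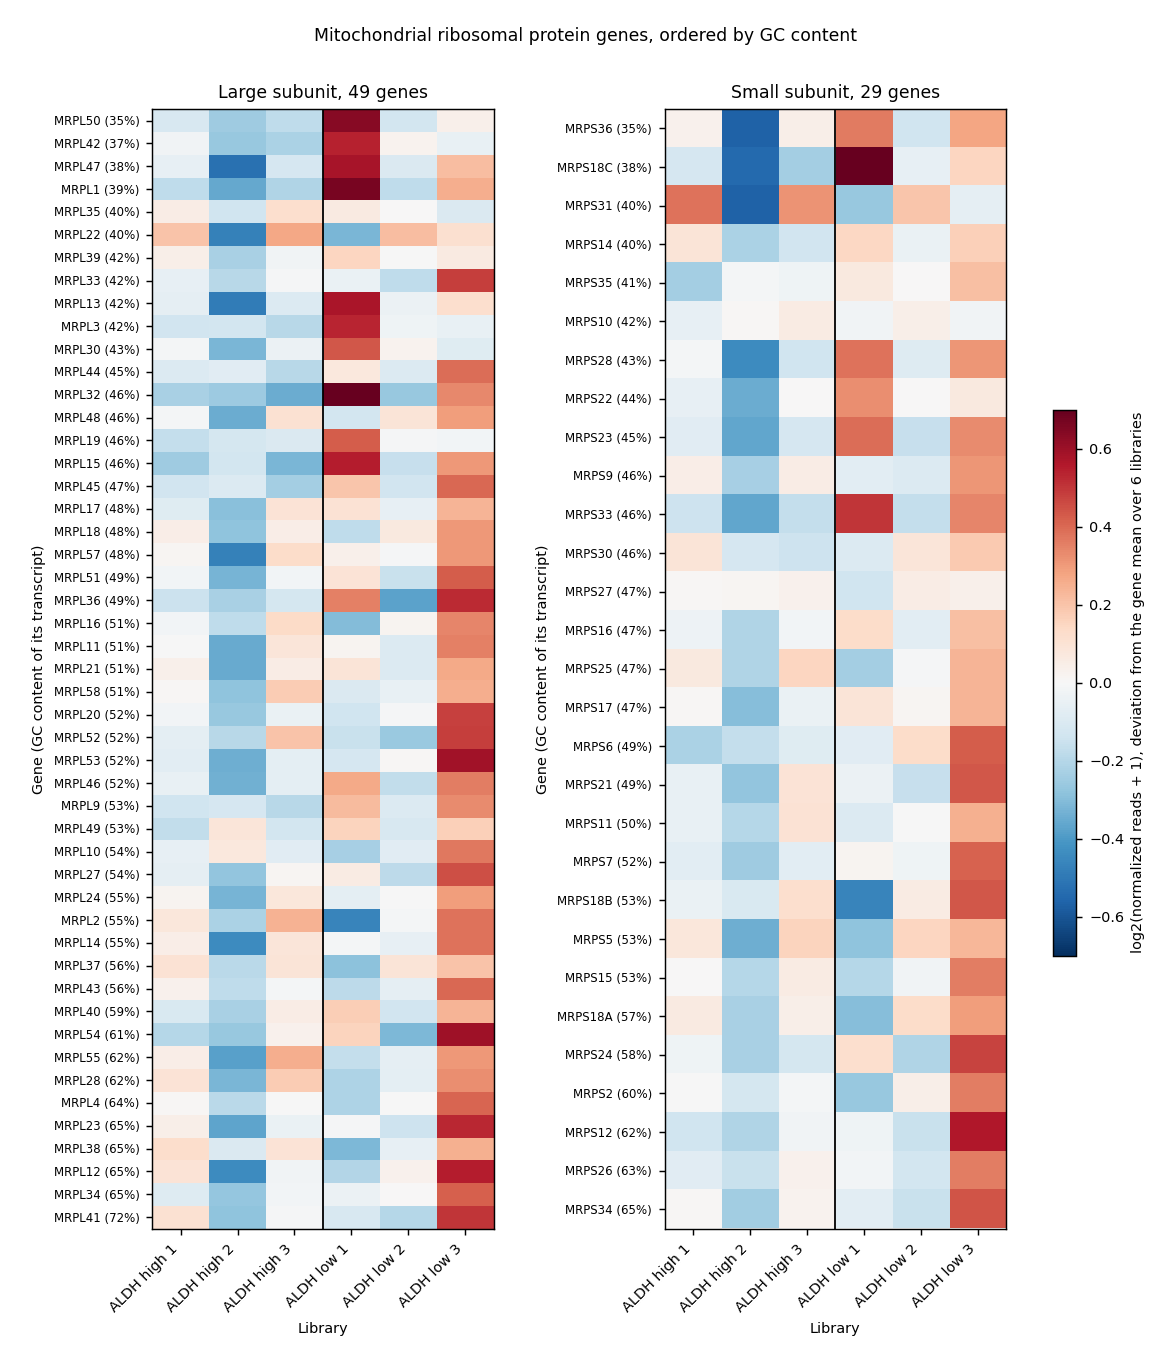
Log2 deviation of each gene from its own mean over the 6 libraries (colour, saturated beyond 0.7), MRPL genes left and MRPS genes right, ordered from low to high GC content of the transcript. ALDH low 3 is red over most of its column, ALDH high 2 is blue, and ALDH low 1 is red in the low-GC rows at the top.

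In the large subunit the lowest differences were those of MRPL32, MRPL1 and MRPL47. MRPL32, which is cleaved by the m-AAA protease after import before it joins the ribosome, lies at chr7:42932200-42948958 in GRCh38. It had 2320, 2283 and 2136 normalized reads in ALDH high 1 to 3, and 4603, 2262 and 3428 in ALDH low 1 to 3. ALDH low 1 and 3 stand above the rest, and ALDH low 2 lies among the ALDH high values. The log2 difference was -0.55 (95% interval -1.05 to -0.05, limma adjusted p = 0.984), and -0.31 without ALDH low 1.

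MRPL1 (chr4:77862520-77952790), the protein of the mobile stalk at the tRNA exit side, had 1050, 928 and 1025 normalized reads in the ALDH high libraries and 1883, 1050 and 1418 in ALDH low. ALDH low 2 again lies at the ALDH high level. The log2 difference was -0.50 (95% interval -0.95 to -0.04, limma adjusted p = 0.984), and -0.29 without ALDH low 1. MRPL47 (chr3:179588285-179604654) had 1558, 1127 and 1492 normalized reads in the ALDH high libraries and 2421, 1512 and 1885 in ALDH low (log2 difference -0.47, and -0.29 without ALDH low 1). The groups overlap, since ALDH low 2 lies below ALDH high 1. MRPL15 had a log2 difference of -0.46 with the same 2 high libraries, ALDH low 1 at 2474 and ALDH low 3 at 2084 normalized reads.

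In 4 MRPL genes the 3 ALDH high values all lay below the 3 ALDH low values, and in no MRPL gene all above. MRPL13 had 1137, 848 and 1113 normalized reads in the ALDH high libraries and 1769, 1157 and 1289 in ALDH low (log2 difference -0.43). MRPL3, whose bacterial counterpart reaches the peptidyl transferase centre, had 5008, 5023 and 4792 in the ALDH high libraries and 7933, 5378 and 5301 in ALDH low (log2 difference -0.30). Its ALDH low 1 value stands apart from the other 5. MRPL9 had 2680, 2724 and 2586 in the ALDH high libraries and 3443, 2764 and 3720 in ALDH low (log2 difference -0.30), and MRPL19 had 1256, 1297 and 1316 against 1891, 1405 and 1391 (log2 difference -0.26). Genes on the other strand cover 39.4% of the transcript of MRPL9. The gap between the nearest values of the 2 groups was 1.47% in MRPL9, 1.70% in MRPL13, 5.53% in MRPL3 and 5.76% in MRPL19. Without ALDH low 1 the difference was -0.25 in MRPL13, -0.11 in MRPL3 and -0.12 in MRPL19, while that of MRPL9 moved by less than 1.5 times without any 1 library.

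In the small subunit MRPS18C had the lowest difference. It is the member of the S18 trio that takes the place of the bacterial protein, and lies at chr4:83455932-83469735. It had 924, 689 and 850 normalized reads in the ALDH high libraries and 1761, 963 and 1115 in ALDH low, so the groups do not overlap, by 4.30% between the nearest values. The log2 difference was -0.60 (95% interval -1.10 to -0.10, limma adjusted p = 0.984), and -0.35 without ALDH low 1. ABRAXAS1 on the other strand covers 78.9% of its transcript, and the labels do not settle whether strand was used in counting, so reads of both genes cannot be told apart. MRPS33, a protein with no bacterial counterpart, had 2314, 1987 and 2280 in the ALDH high libraries and 3622, 2276 and 3236 in ALDH low (log2 difference -0.45), and MRPS28 had 1721, 1280 and 1576 against 2260, 1636 and 2157 (log2 difference -0.40). In both, ALDH low 2 lies below ALDH high 1. MRPS28 shares 55.4% of its transcript with AC036214.3 on the same strand.

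Another 5 MRPS genes did not overlap, all lower in ALDH high. MRPS6 had 572, 595 and 629 normalized reads in the ALDH high libraries and 631, 730 and 893 in ALDH low (log2 difference -0.31). MRPS22, mutated in some inherited defects of mitochondrial translation, had 1833, 1500 and 1910 against 2391, 1912 and 2000 (log2 difference -0.27). MRPS7 had 3709, 3291 and 3715 against 3964, 3823 and 5196 (log2 difference -0.27). The last 2 were MRPS17 with a log2 difference of -0.22 and MRPS35 with -0.19. Other genes on the same strand cover 31.9% of the transcript of MRPS6 and 31.6% of that of MRPS17, so their reads are uncertain. The gaps between the nearest values were small: 0.115% in MRPS22, 0.202% in MRPS17, 0.318% in MRPS6, 0.977% in MRPS35 and 2.90% in MRPS7. With 1 library left out these differences came down to -0.18 in MRPS6 and -0.13 in MRPS7 (without ALDH low 3), to -0.16 in MRPS22 and -0.13 in MRPS17 (without ALDH high 2), to -0.17 in MRPS22 without ALDH low 1 and to -0.11 in MRPS35 without ALDH high 1.

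Together 10 of 78 members did not overlap and were lower in ALDH high (4 MRPL and 6 MRPS), where 3.32% of all genes did so, and 0 were higher, where 3.67% of all genes did so. Of these 10 members, 6 were among the 26 members lowest in GC content, 4 among the 26 in the middle and 0 among the 26 highest. Among the genes of all kinds in the members' range of level, the share lower without overlap was 6.53% where GC content was as low as in the lowest 26 and 1.07% where it was as high as in the highest 26.

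At the other end, 8 members had a difference above 0, and none of these was as large as 0.10. MRPL38, a protein with no bacterial counterpart, had 1084, 928 and 1062 normalized reads in the ALDH high libraries and 801, 958 and 1185 in ALDH low (log2 difference 0.08). MRPL2, near the peptidyl transferase centre, had a log2 difference of 0.07 and MRPL35 of 0.02. MRPS31 had the largest difference above 0 in either subunit, 0.09 (95% interval -0.47 to 0.65), from 901, 467 and 861 normalized reads in the ALDH high libraries and 574, 791 and 661 in ALDH low. ALDH high 2 holds its lowest value and the other ALDH high libraries its highest values. MRPS27 had a log2 difference of 0.03 and MRPS10 of 0.006. These directions are not stable: each of MRPL2, MRPL35, MRPL38, MRPS10, MRPS27 and MRPS31 turned below 0 when 1 library was left out.

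The members also differed in how much they varied at all. MRPS10 was the steadiest, with 674 to 733 normalized reads over the 6 libraries and an SD of 0.05 on the log2 scale, and MRPS27 had 3434 to 3926 with an SD of 0.07. MRPL35 (SD 0.10) and MRPL39 (SD 0.13) were the steadiest of the MRPL genes. The 2 that varied most in each subunit were MRPL32 (SD 0.45) and MRPL1 (SD 0.39), and MRPS18C (SD 0.46) and MRPS31 (SD 0.37). The median SD was 0.25 over MRPL genes and 0.22 over MRPS genes, beside 0.22 over the 9578 genes in the members' range of level, so the spread of a single member was like that of other genes of its level.

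Members chosen by structure, some of which depart from their name in place or role, gave these values. MRPS18A and MRPS30, both in the large subunit, had log2 differences of -0.08 and -0.11. MRPS18A had 1459, 1194 and 1435 normalized reads in the ALDH high libraries and 1133, 1524 and 1712 in ALDH low. MRPS18B, the third S18 relative, had 1885, 1806 and 2111 against 1413, 2025 and 2633, and a log2 difference of -0.02, so the S18 trio ranged from -0.60 to -0.02. MRPS36 had 575, 379 and 577 against 723, 510 and 681 (log2 difference -0.33). MRPL12, which forms the stalk that recruits translation factors, had 2782, 1921 and 2562 against 2258, 2657 and 3815 (log2 difference -0.25), and MRPL58, a release factor relative that frees stalled ribosomes, had 1677, 1371 and 1889 against 1556, 1608 and 1992 (log2 difference -0.07). The groups overlap in all 6 of these. Without ALDH high 2 the difference of MRPS36 was -0.13 and that of MRPL12 -0.09, and MRPL12 was at -0.03 without ALDH low 3 and -0.41 without ALDH low 1. MRPS30 ran from -0.19 to -0.05 with 1 library left out, and MRPS18A, MRPS18B and MRPL58 changed sign.

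Genes of proteins with and without a bacterial counterpart were counted apart, leaving out MRPS18A, MRPS30 and MRPS36, whose names do not match their place. Of the 30 MRPL genes whose protein has a bacterial counterpart, 28 had a difference below 0 (median -0.21), and of the 19 without one, 17 (median -0.19). In the small subunit the counts were 15 of 16 with a counterpart (median -0.18) and 7 of 10 without one (median -0.14). The lists were drawn up from general knowledge of the ribosome, and the differences between them were not tested.

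The ratio of the subunits was taken from sums, in which abundant genes weigh most, and from medians. The summed normalized reads of the 49 MRPL genes over those of the 29 MRPS genes were 1.96, 1.91 and 1.94 in ALDH high 1 to 3, and 2.02, 1.93 and 1.95 in ALDH low 1 to 3. The log2 ratio was 0.96 ± 0.02 (SD, n = 3) in the ALDH high libraries and 0.98 ± 0.04 (SD, n = 3) in ALDH low, a difference of -0.02 that is less than the pooled SD of 0.03 and about the SD within ALDH high. With 1 library left out it lay between -0.035 and -0.00018. The median log2 level of the MRPL genes minus that of the MRPS genes was -0.0024, -0.04 and -0.16 in ALDH high 1 to 3 and -0.07, -0.21 and -0.07 in ALDH low 1 to 3, and its group difference had the other sign (0.05). Neither measure separates the groups. As a share of all gene reads the MRPL genes made up 0.461%, 0.400% and 0.456% in the ALDH high libraries and 0.496%, 0.453% and 0.515% in ALDH low. The MRPS genes made up 0.235%, 0.209% and 0.235% in the ALDH high libraries and 0.245%, 0.235% and 0.264% in ALDH low. In both subunits ALDH high 2 is lowest, ALDH low 3 highest and ALDH low 1 next.

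The proteins of the cytosolic ribosome followed a like order of libraries. The 76 cytosolic ribosomal protein genes took 11.3%, 10.8% and 12.3% of the reads in the ALDH high libraries and 13.9%, 10.8% and 15.2% in ALDH low, and all 76 had a difference below 0 (median -0.25), with 0 of them past the adjusted threshold. ALDH low 3 was the highest library for 60 of these 76 and ALDH high 2 the lowest for 43. The mRNAs coded by mitochondrial DNA, which the mitochondrial ribosome translates, followed another order: 3.86%, 2.10% and 3.85% of the reads in the ALDH high libraries and 1.23%, 3.57% and 2.18% in ALDH low, with 1 of 13 below 0 and a median of 0.60. Their lowest library was ALDH low 1 for 12 of 13. None of the 13 passed the adjusted threshold, and the groups overlap in every one.

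**Figure D4:**
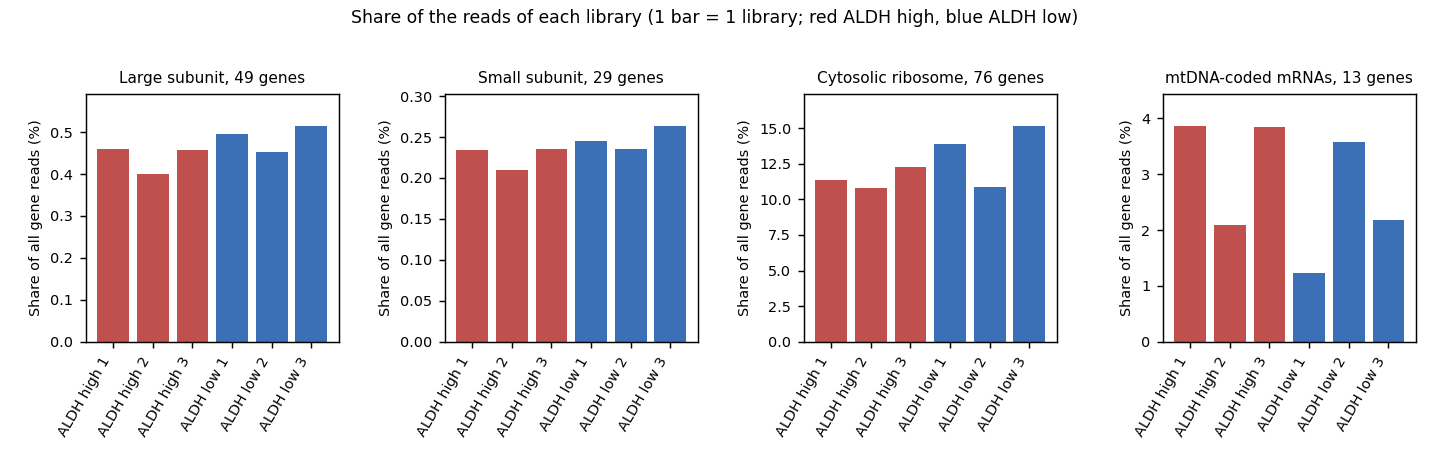
Share of all gene reads (%) in each library for the 49 MRPL genes, the 29 MRPS genes, the 76 cytosolic ribosomal protein genes and the 13 mRNAs coded by mitochondrial DNA; 1 bar is 1 library, red for ALDH high and blue for ALDH low. ALDH low 3 is highest and ALDH high 2 lowest in the first 3 panels, whereas ALDH low 1 is lowest for the mRNAs coded by mitochondrial DNA.

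Among the members themselves the libraries that stand high varied with base composition. The 17 members highest in ALDH low 1 had transcripts of 34.96% to 46.5% GC (median 42.4%), among them MRPL1, MRPL3, MRPL32, MRPL47, MRPS18C and MRPS33. The 56 highest in ALDH low 3 had 39.9% to 71.9% GC (median 52.6%), and include all 26 members highest in GC content. Across the 78 members the deviation in ALDH low 1 had a Spearman rho of -0.52 with GC content, and the deviation in ALDH low 3 had 0.62 with GC content and -0.52 with transcript length. The points share libraries and are not independent, and the same relations were present over 9197 genes in the members' range of level (rho of -0.53, 0.42 and -0.63). In ALDH high 2 members and those genes differed more: rho with length was 0.25 over members and 0.62 over the genes, and rho with GC content 0.15 and -0.15. GC content thus moved with the members' values in ALDH low 1, and GC content and length in ALDH low 3. Their part in the group difference was not tested beyond the trend removal given above.

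**Figure D5:**
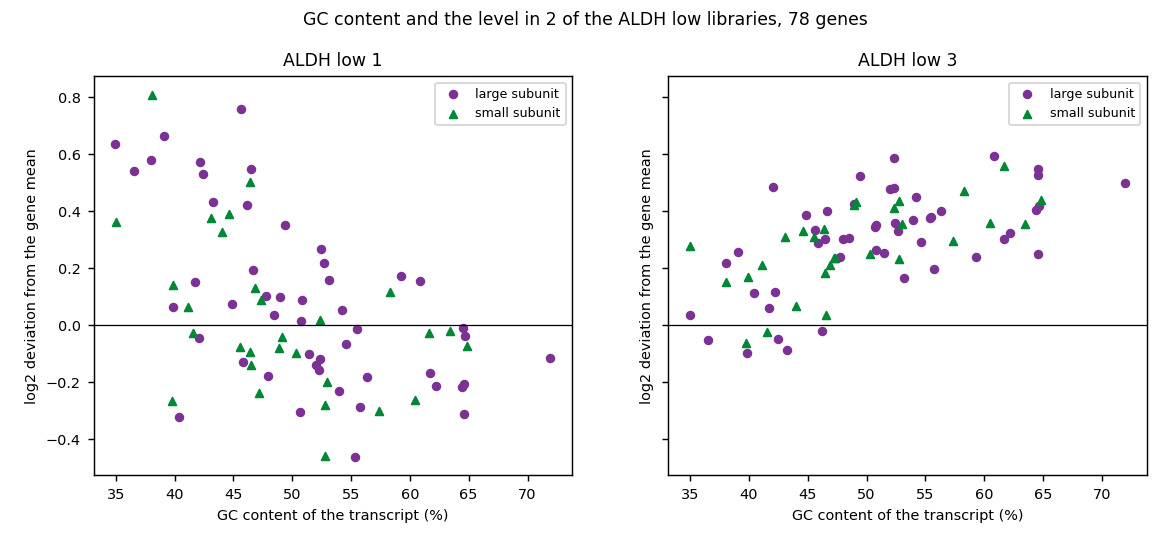
GC content of the transcript (%) against the log2 deviation from the gene's mean over the 6 libraries, in ALDH low 1 (left) and ALDH low 3 (right), for 49 MRPL genes (circles) and 29 MRPS genes (triangles). Deviations fall with GC content in ALDH low 1 (rho of -0.52) and rise with it in ALDH low 3 (rho of 0.62).

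Members with and without the motif letters had similar medians, which were not tested against each other. The median difference was -0.18 in the 29 members with the ETS letters and -0.18 in the 40 without them. It was -0.22 in the 23 members with the YY1 letters and -0.18 in the 46 without them, and -0.15 in the 7 with the NRF1 letters and -0.18 in the 62 without them. ALDH low 3 had the highest median deviation in each of these 6 sets, 0.29 to 0.33. The factors themselves overlapped between the groups: YY1 had 3041, 3495 and 2985 normalized reads in the ALDH high libraries and 3464, 2996 and 3278 in ALDH low. PPARGC1A, a coactivator of mitochondrial biogenesis, had the largest difference of the 8 biogenesis regulators, 0.96 (95% interval -0.15 to 2.06), from 42.9, 21.9 and 25.15 against 7.80, 26.4 and 13.9 normalized reads, and its groups overlap. ESRRA had the lowest difference of these regulators, -0.25.

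Several members start next to another gene on the opposite strand. Of the 78, 22 had such a gene start within 1000 bases, and in 18 cases it was a protein-coding gene in the table. Of these 18 neighbours, 8 had a difference below 0, beside 47.7% of all genes. The 18 include MRPS11 and MRPL46, each counted as the neighbour of the other. The pairs named next are examples and do not reflect this share. MRPL32 and PSMA2, a subunit of the proteasome core, start 23 bases apart and had log2 differences of -0.55 and -0.51. MRPL47 starts 36 bases from NDUFB5, a subunit of respiratory complex I, which had -0.19, and MRPL36 starts 34 bases from NDUFS6, of the same complex, with -0.34 for the member and -0.18 for its neighbour. MRPS11 and MRPL46, both members, start 34 bases apart and had -0.10 and -0.30. MRPL13 with -0.43 and its neighbour MTBP with 0.07, 2 bases apart, lay on either side of 0, as did MRPL27 with -0.22 and EME1 with 0.14. None of these genes passed the adjusted threshold.

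The rest of the mitochondrial translation system was counted from lists of its parts. Of 5 ribosomal proteins with other names, 4 had a difference below 0 (median -0.12), from CHCHD1 at -0.32 to PTCD3 at 0.06. Of 28 assembly factors 22 were below 0 (median -0.09), from GTPBP10, a GTPase of large subunit assembly, at -0.30 to TFB1M, which methylates the small ribosomal RNA, at 0.11. Of 15 translation factors 14 were below 0 (median -0.07), from the elongation factor GFM1 at -0.22 to OXA1L, which inserts new proteins into the inner membrane, at 0.15. Of 16 transcription and RNA processing genes 11 were below 0 (median -0.08), from the elongation factor TEFM at -0.51 to the helicase SUPV3L1 at 0.10. TEFM had 293, 291 and 281 normalized reads in the ALDH high libraries and 530, 366 and 360 in ALDH low, without overlap. In these 4 lists 0 genes passed the adjusted threshold. The 2 ribosomal RNAs coded by mitochondrial DNA, which poly(A) selection catches in part, had differences of 0.11 (MT-RNR2) and 0.15 (MT-RNR1).

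Copies elsewhere in the genome limit the counts of some members. GENCODE 29 lists 75 pseudogenes named for 34 of the 78 members, up to 8 for one member (MRPS21), and 4 of them are in the table. MRPS31 has 2 copies there, MRPS31P4 with 40.7 to 83.0 normalized reads and MRPS31P5 with 7.50 to 25.4, and MRPL45P2 had 61.7 to 132. Since only uniquely placed reads were counted, reads that fit a gene and its copy equally well are missing from both. On the same strand, 9 members share over 20% of their transcript with another gene: MRPL12, MRPL30, MRPL38, MRPL46, MRPL53, MRPS6, MRPS17, MRPS24 and MRPS28. With a gene on the opposite strand 6 do: MRPL4, MRPL9, MRPL34, MRPS12, MRPS18A and MRPS18C. The values of these members are uncertain to that extent.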

How the data were processed

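The data are RNA libraries of LNCaP cells, 3 ALDH high and 3 ALDH low, grouped by their labels. GRCh38, Trimmomatic 0.36, STAR 2.5.2b, Subread 1.5.2 (featureCounts) and DESeq2 are named in the submitters' processing notes, without an annotation release, and per the labels uniquely placed reads within exons were counted. The table that the authors deposited gives for every gene a normalized signal in each library (reads divided by a size factor), the authors' log2 fold change, and the authors' p-value and adjusted p-value. Whole reads were recovered from the signal within 0.02 reads for at least 99.97% of values per library.

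Differences, ALDH high minus ALDH low, were fitted by limma 3.58.1 (R 4.3.3), trend option on, from log2(normalized reads + 1) over all 16000 genes, with Benjamini-Hochberg adjustment over all of them; a pseudocount of 1 understates changes of low genes. edgeR 4.0.16 and DESeq2 1.42.0 ran on recovered reads as alternatives. The 46 spike-in rows stayed out. The script was checked on simulated data. Length and GC content are those of the GENCODE 29 principal transcript, except that the trend removal used the length of all annotated exons. Coordinates are GRCh38. The members, lists and rules were chosen with earlier results of these data known. Named members were the extremes of level, difference and SD in each subunit, all without overlap, and 7 chosen by structure. MRPL15 and some pairs and lists' values were named after the values were seen. Alternatives were other pseudocounts (0.5 and 5), a minimum mean of 50, other scalings and tools, libraries left out and a replicate block.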

Additional observations from a re-analysis of the deposited data

How the results depend on the processing

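In every alternative run 0 members passed the adjusted threshold. The number of genes called over the whole table was 0 except with spike-in scaling (1) and without both samples numbered 2 (107). Leaving out 1 sample at a time gave medians of -0.29 to -0.07 for MRPL genes and -0.24 to -0.03 for MRPS genes. Without both ALDH high 2 and ALDH low 3, added after the data were seen, the MRPL median was 0.042 and 37 members were below 0. The log2 ratio of the subunits differed by -0.02 from sums and by 0.049 from median log2 values; the cause was not tested.

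Of 27 members whose difference was followed, 17 kept their sign in all alternatives. The other 10 turned sign somewhere, MRPS30 with spike-in scaling alone. Spike-in scaling, scaling to the total of genes and leaving out the mitochondrially encoded genes shift all genes alike (median of all genes 0.15, 0.059 and 0.074). A sign that turns under them follows from where 0 was set and says nothing about that member apart from other genes. The scaling of the main fit sets a 0 as well, and which place of 0 is right was not tested. With spike-in scaling MRPL58 was 0.069, MRPS18A 0.054, MRPS18B 0.11 and MRPS30 0.020. With length and GC trends removed MRPL58 was 0.049, MRPS18A 0.021, MRPS18B 0.058 and MRPS27 -0.029. Without both samples numbered 2 MRPL58 was 0.016, MRPS18A 0.055 and MRPS18B 0.049. MRPS18B was 0.022 scaled to the total of genes and 0.038 without the mitochondrially encoded genes. Leaving out 1 sample at a time, MRPL2 ran from -0.15 to 0.27, MRPL35 from -0.031 to 0.097, MRPL38 from -0.059 to 0.22, MRPL58 from -0.17 to 0.059, MRPS10 from -0.022 to 0.038, MRPS18A from -0.25 to 0.047, MRPS18B from -0.26 to 0.19, MRPS27 from -0.028 to 0.068 and MRPS31 from -0.078 to 0.39. The causes were not tested.

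The samples share replicate numbers, but same-numbered samples did not deviate together (r of -0.46, -0.49 and 0.07 over 12699 genes). ALDH high 2 and ALDH low 1 did (r of 0.57), as did ALDH low 2 with ALDH high 1 (r of 0.43) and with ALDH high 3 (r of 0.40). A pattern shared across numbers can hide a pairing, so this check cannot settle whether the numbers are one. With a replicate block limma called 0 genes and 0 members, 9 members had an unadjusted p under 0.05, and the medians stayed at -0.21 and -0.15. The lowest count of a member in a library was 183 reads. The intervals, each for a single gene without adjustment, had a half-width of 0.30 to 0.56, and differences smaller than that could not be told from 0. Larger ones did not pass the adjusted threshold either, MRPS18C at -0.60 among them.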
